A study of Homo sapiens with 6 samples.

Results

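The genes described here belong to 7 solute carrier (SLC) families that hold many of the amino acid transporters of the plasma membrane and the lysosome: SLC1, SLC3, SLC6, SLC7, SLC36, SLC38 and SLC43. They were taken by symbol, as the rows of the count table named SLC1A, SLC3A, SLC6A, SLC7A, SLC36A, SLC38A or SLC43A followed by a number, which gave 59 of 56832 genes. This choice was made with earlier results of these data known. The mRNA of HEK293T cells, a human embryonic kidney line that carries the SV40 large T antigen, was sequenced after poly(A) selection in 3 libraries of cells labelled SMARCA3 KO and 3 libraries of cells labelled WT. SMARCA3 is the protein encoded by HLTF, a SNF2-family helicase and ubiquitin ligase, and the comparison asks which mRNAs differ between the KO and the WT cells. Both groups were grown in DMEM with serum, a medium that supplies amino acids, and the labels name no other treatment. They do not say whether the KO cells came from 1 clone or whether replicates were separate cultures, so p-values measure the spread between these libraries, which may be technical.

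Amino acid transporters differ in what they carry and in how they are driven. SLC1 proteins take up glutamate and aspartate or exchange small neutral amino acids, SLC6 proteins use sodium and chloride to import neurotransmitters, osmolytes and neutral amino acids, and SLC38 proteins import glutamine and related amino acids with sodium. The light chains of the SLC7 family swap one amino acid for another and reach the cell surface bound to a heavy chain, mostly one of the SLC3 family, while the cationic SLC7 transporters work without one. Inside the cell, amino acids are sensed by the mTORC1 pathway at the lysosome and by the GCN2 and ATF4 pathway in the cytosol. Not every member carries an amino acid: SLC6A2, SLC6A3 and SLC6A4 transport monoamines, SLC6A8 creatine and SLC43A3 nucleobases.

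Total counts lay between 33125811 and 36804337 in the KO libraries and between 38199454 and 41593655 in the WT libraries. HLTF averaged 143 ± 5.26 CPM in the KO and 200.3 ± 13.1 CPM in the WT libraries (SD, n = 3 each), where CPM are counts per 1000000 counts of the tested genes after TMM scaling. Its log2 fold change was -0.48 (edgeR adjusted p = 4.65e-05), and the median of its neighbours on the chromosome was -0.50. The exact two-sided permutation test of HLTF gave p = 0.1, the smallest that 3 against 3 libraries allow, and protein loss cannot be read from these counts. WT replicate 1 stood furthest from its group, with chi-square per degree of freedom of 9.80 and 15.3 against the other WT libraries, compared with 3.56 to 5.65 among the KO libraries. All 10 markers named for the HEK293T line had a mean of at least 1 CPM, and their summed level was 298 to 305 CPM in the KO and 396 to 417 CPM in the WT libraries. At least 1 CPM on average was reached by 0 of 3 endothelial markers, 1 of 4 fibroblast markers (COL1A1) and 1 of 5 proximal tubule markers (LRP2), while DCN, UMOD and the blood markers CD3E and HBB were at 0 in all libraries. The endothelial list summed to 0.175 to 0.545 CPM in the KO and 0.361 to 0.436 CPM in the WT libraries, and the fibroblast list to 6.27 to 6.87 CPM in the KO and 6.41 to 8.26 CPM in the WT libraries. The proximal tubule list summed to 21.1 to 21.7 CPM in the KO and 39.7 to 45.3 CPM in the WT libraries, nearly all of it LRP2, while SLC34A1 was below 0.03 CPM on average in both groups. Whether these differences in marker level bear on the transporters was not tested. In bulk RNA, fewer cells of a kind and less RNA per cell cannot be told apart.

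Of the 59 genes, 36 had enough counts to be tested, and 15 of these were called at an adjusted p under 0.05 (edgeR quasi-likelihood test, Benjamini-Hochberg over all tested genes). Of these, 10 rose and 5 fell in the KO libraries. The calls amount to 41.7% of the tested transporters, beside 31.8% of all 18061 tested genes, with 27.8% against 14.0% called higher and 13.9% against 17.7% called lower. The median log2 fold change of the transporters was 0.06, beside 0.00 over all tested genes, and the median size of the change was 0.19 on the log2 scale, beside 0.18. Among called transporters that reached 1 CPM in either group, 7 changed by 1.5-fold or more, which is 19.4% of those tested, beside 7.52% of all tested genes by the same rule. Among them SLC6A4, SLC7A3, SLC1A1 and SLC6A8 fell, and SLC6A9 and SLC43A2 rose. Exons of 7 of the 15 called genes overlap another annotated gene, and, with no strand setting stated for the counting, reads of such pairs may not have been separated.

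**Figure D1:**
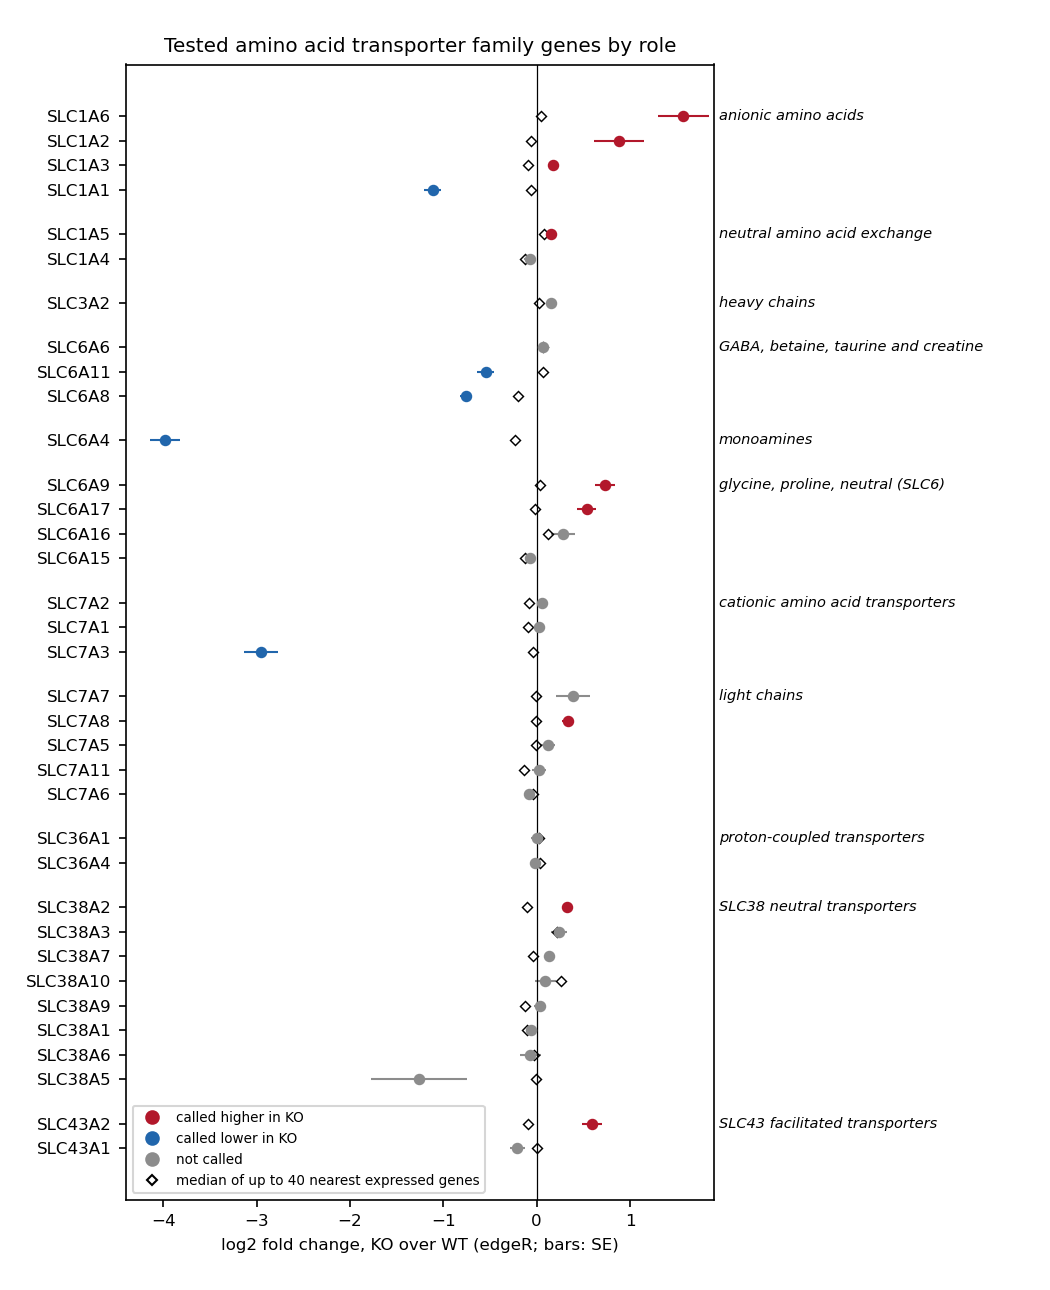
Log2 fold change of KO over WT for 35 tested transporter genes, 1 row per gene, grouped by role; filled circles are edgeR estimates with SE bars, and open diamonds are the median log2 fold change of up to 40 nearest expressed genes. SLC6A4 at -3.98 and SLC7A3 at -2.95 lie far left of the rest, while most uncalled genes lie within 0.3 of 0.

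The 4 sequences shown here are the promoter windows of those of the 7 genes whose RefSeq start lies within 500 bases of the GENCODE start, 3 that fell and 1 that rose. Each runs 5′ to 3′ on the gene's strand from 250 bases before to 50 bases after the start (RefSeq, GRCh38.p14), and capitals mark CpG dinucleotides.
SLC6A4: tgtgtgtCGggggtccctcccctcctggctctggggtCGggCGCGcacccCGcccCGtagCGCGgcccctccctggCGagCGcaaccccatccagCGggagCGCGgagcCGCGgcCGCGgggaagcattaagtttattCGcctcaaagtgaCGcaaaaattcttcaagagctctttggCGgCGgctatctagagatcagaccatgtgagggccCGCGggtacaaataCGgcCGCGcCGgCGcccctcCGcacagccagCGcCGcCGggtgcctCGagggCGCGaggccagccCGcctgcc
SLC1A1: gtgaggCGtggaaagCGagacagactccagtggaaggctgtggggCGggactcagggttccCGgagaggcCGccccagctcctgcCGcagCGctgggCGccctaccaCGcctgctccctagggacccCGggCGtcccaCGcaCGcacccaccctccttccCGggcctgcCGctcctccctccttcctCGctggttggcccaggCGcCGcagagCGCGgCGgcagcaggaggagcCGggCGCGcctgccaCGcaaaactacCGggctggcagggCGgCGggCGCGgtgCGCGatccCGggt
SLC6A8: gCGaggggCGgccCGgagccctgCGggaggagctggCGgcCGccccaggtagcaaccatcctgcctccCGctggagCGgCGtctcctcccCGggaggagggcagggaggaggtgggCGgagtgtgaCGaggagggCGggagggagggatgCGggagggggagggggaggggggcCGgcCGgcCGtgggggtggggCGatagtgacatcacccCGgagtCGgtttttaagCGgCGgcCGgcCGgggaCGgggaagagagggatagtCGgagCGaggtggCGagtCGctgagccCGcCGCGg
SLC6A9: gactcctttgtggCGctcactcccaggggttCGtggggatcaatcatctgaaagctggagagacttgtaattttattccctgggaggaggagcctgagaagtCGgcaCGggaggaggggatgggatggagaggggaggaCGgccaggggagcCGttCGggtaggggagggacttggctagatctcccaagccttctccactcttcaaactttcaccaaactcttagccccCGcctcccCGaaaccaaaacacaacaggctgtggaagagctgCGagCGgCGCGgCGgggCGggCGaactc

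The windows lie at chr17:30235648-30235947 on the minus strand for SLC6A4, chr9:4490218-4490517 on the plus strand for SLC1A1, chrX:153687676-153687975 on the plus strand for SLC6A8 and chr1:44031413-44031712 on the minus strand for SLC6A9. The windows of the genes that fell hold 36 CpG dinucleotides in SLC6A4, 33 in SLC1A1 and 32 in SLC6A8, and that of SLC6A9, which rose, holds 16, beside a median of 14 over 27305 RefSeq windows. Of the other called transporters with a window, those that rose held 1 (SLC1A3) to 33 (SLC38A2), and SLC6A11, which fell, held 39. Uncalled tested transporters held 2 (SLC36A1) to 49 (SLC7A1), and CpG number was not tested against the direction of change. The motifs searched on both strands were TGATGNAA, the core of the element bound by ATF4 in amino acid response genes, and CACGTG, the E-box bound by MYC and related factors. Neither occurred in the 4 windows. TGATGNAA is present in 3.67% of all windows and CACGTG in 7.43%. Among other transporters, TGATGNAA was found in the windows of SLC7A1, SLC38A1, SLC1A3 and SLC3A2. The RefSeq start coincides with the GENCODE start for SLC7A1, but lies 3501 bases from it for SLC38A1, 9767 for SLC1A3 and 25597 for SLC3A2. CACGTG was found in 6 of the 44 matched windows, those of SLC7A5, SLC38A5, SLC38A7, SLC43A1, SLC6A16 and SLC1A7, of which SLC1A7 had too few counts to be tested and the others were not called. Windows were matched for 44 of the 59 genes (74.6%), too few for a statement over the whole set.

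Before any change between groups, the transporters differed from each other by orders of magnitude, and levels between genes are given per length, as CPM per kilobase of annotated exons. The highest level over the 6 libraries belonged to SLC1A5 (ASCT2), the sodium-dependent exchanger that brings in glutamine, with 72.8 ± 0.926 CPM per kilobase in the KO and 65.5 ± 3.25 in the WT libraries (SD, n = 3 each). SLC7A5 (LAT1), the exchanger for leucine and other large neutral amino acids, had 71.6 ± 4.52 CPM per kilobase in the KO and 65.9 ± 8.06 in the WT libraries. In the WT libraries its mean was the higher of both, and its range overlapped that of SLC1A5 in both groups. SLC38A2 (SNAT2), a sodium-coupled importer of small neutral amino acids, followed with 60.8 ± 0.923 in the KO and 48.6 ± 4.09 CPM per kilobase in the WT libraries, below SLC7A5 without overlap in each group. SLC3A2 (4F2hc), the heavy chain of LAT1, had 42.1 ± 2.34 CPM per kilobase in the KO and 37.8 ± 2.64 in the WT libraries. SLC7A1 (CAT1), the main importer of arginine and lysine in many cells, had 37.6 ± 1.34 and 37.0 ± 1.56 CPM per kilobase in KO and WT libraries, and it overlapped SLC3A2 in the WT but not in the KO libraries. These 5 genes made up 63.2% to 64.5% of the summed level per length of all 59 genes in the KO libraries and 58.2% to 60.6% in the WT libraries. With the longest transcript as the length, SLC3A2 ranked 1st, SLC1A5 2nd, SLC38A2 3rd and SLC7A5 4th, and SLC38A1 was 5th in place of SLC7A1. SLC6A8 had the 8th highest level in the KO libraries and the 7th highest in the WT libraries, SLC1A1 the 26th and the 20th, and SLC7A3 the 31st and the 28th.

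**Figure D2:**
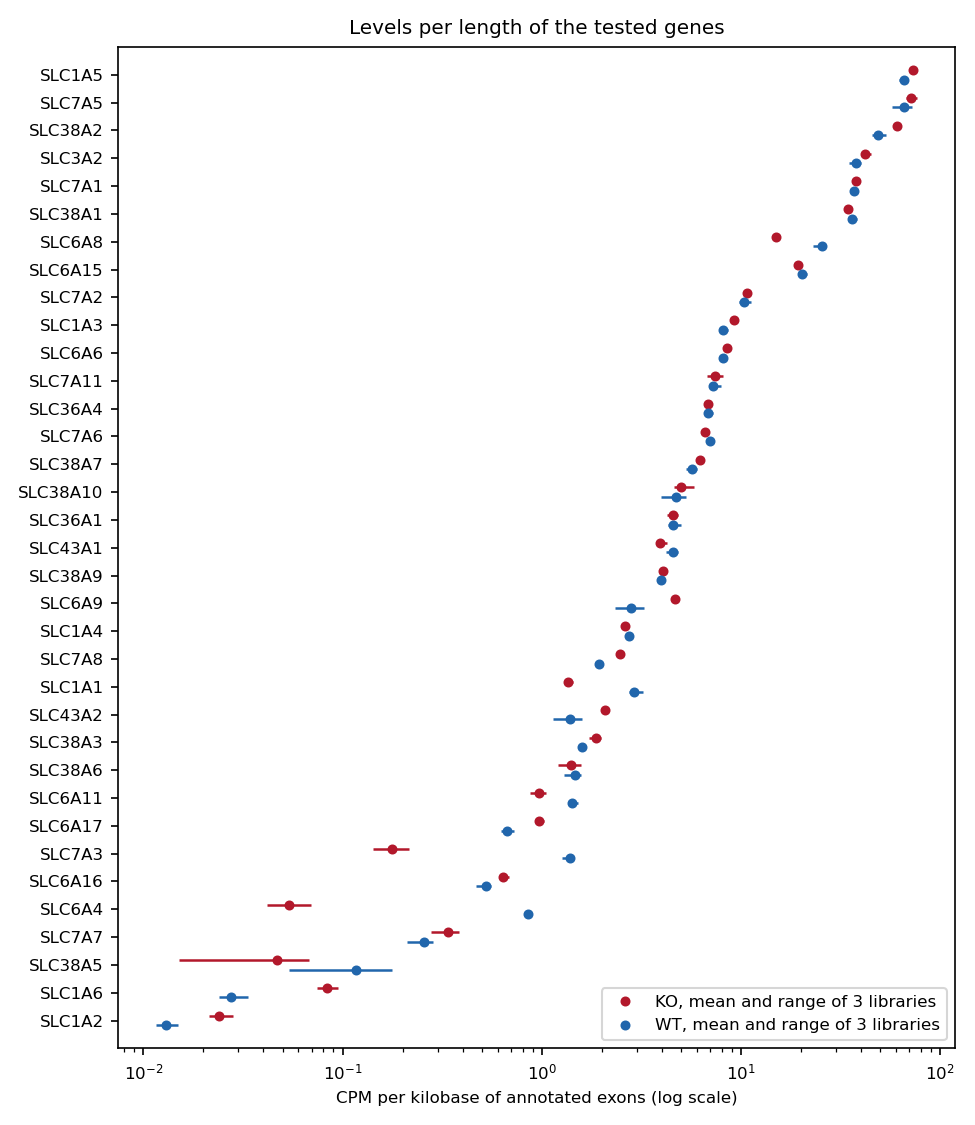
Level per length of 35 tested transporter genes on a log axis, as CPM per kilobase of annotated exons; circles are means and lines ranges of 3 KO or 3 WT libraries. The highest means are 72.8 in the KO libraries, for SLC1A5, and 65.9 in the WT libraries, for SLC7A5, and the lowest are those of SLC1A2, with 0.0240 in the KO and 0.0130 in the WT libraries.

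Of the 5 SLC1 genes for glutamate and aspartate, 4 had enough counts to be tested and all 4 were called, 1 lower and 3 higher in the KO libraries. Over all tested genes 31.8% were called. SLC1A1 (EAAT3), which carries glutamate, aspartate and cysteine, lies on chromosome 9 between 4490444 and 4587469 (hg38). It measured 5.71, 5.16 and 5.27 CPM in KO replicates 1 to 3, against 12.9, 11.1 and 10.96 CPM in WT replicates 1 to 3. All KO libraries were below all WT libraries, at less than 6 CPM. The log2 fold change was -1.11 (SE 0.09, edgeR adjusted p = 8.60e-06), and its expressed neighbours on the chromosome, up to 20 on each side and 28 in all, had a median of -0.07. SLC1A3 (EAAT1), the abundant glial glutamate transporter and the highest of these genes here, measured 57.6, 58.2 and 57.3 CPM in KO replicates 1 to 3, against 53.8, 48.9 and 50.2 CPM in WT replicates 1 to 3. The groups did not overlap, and the log2 fold change was small, at 0.18 (SE 0.05, edgeR adjusted p = 0.0216). It was not called in 7 of 14 alternatives (their adjusted p values ran between 0.00135 and 0.0901), namely the fit with a replicate block, the fit without a filter, and the fits without any 1 of the libraries other than WT replicate 1.

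SLC1A6 (EAAT4), the glutamate transporter of cerebellar Purkinje cells, rose at a low level. It had 25, 21 and 20 counts in KO replicates 1 to 3, or 0.728, 0.570 and 0.606 CPM, against 8, 10 and 7 counts in WT replicates 1 to 3, or 0.193, 0.257 and 0.184 CPM. Its log2 fold change was 1.57 (SE 0.28, edgeR adjusted p = 0.00147). SLC1A2 (EAAT2), which clears most synaptic glutamate in the forebrain, was as scarce, with 22, 19 and 16 counts in KO replicates 1 to 3, against 11, 11 and 13 counts in WT replicates 1 to 3. Its log2 fold change was 0.88 (SE 0.26, edgeR adjusted p = 0.0260), and it was not called in 6 of 13 alternatives, namely DESeq2, the replicate block, and the fits without KO replicate 1, KO replicate 2, WT replicate 1 or WT replicate 2 (adjusted p between 0.0219 and 0.210 over all 13). SLC1A7 (EAAT5), the retinal transporter, had 0 counts in the KO and 1 count in the WT libraries. Exons of SLC1A2 overlap an antisense transcript by 51 bases, and those of SLC1A6 overlap CCDC105, which had 0 counts in all libraries, by 87 bases.

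Of the SLC1 exchangers of neutral amino acids, SLC1A5 rose slightly and SLC1A4 was not called. SLC1A5 measured 240.1, 241 and 246 CPM in KO replicates 1 to 3, against 207, 219.5 and 228 CPM in WT replicates 1 to 3. The ranges were apart, and the log2 fold change was 0.15 (SE 0.04, edgeR adjusted p = 0.0201) where neighbours had a median of 0.08. With that median removed it was 0.07 (edgeR adjusted p = 0.265), and it was also not called without KO replicate 2 or KO replicate 3 (adjusted p of 0.0586 and 0.0767, in a range of 0.00931 to 0.265 over 14 alternatives). SLC1A4 (ASCT1), a serine, alanine and cysteine exchanger, averaged 18.1 ± 0.536 CPM in the KO and 19.0 ± 0.250 CPM in the WT libraries (SD, n = 3 each).

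Among the heteromeric transporters, 1 of 6 tested genes was called, beside 31.8% of all tested genes. SLC3A2, the heavy chain, measured 231, 208 and 214 CPM in KO replicates 1 to 3, against 180.2, 200.4 and 206 CPM in WT replicates 1 to 3. Every KO library was above every WT library, yet the log2 fold change of 0.15 (SE 0.06) did not pass the test (edgeR adjusted p = 0.0614). It was called in 4 of 14 alternatives, with RLE size factors, with no filter, with at least 1 CPM in 3 libraries and without WT replicate 3 (adjusted p of 0.0244 to 0.175 over all 14). Its light chain SLC7A5 measured 363, 320.3 and 336 CPM in KO replicates 1 to 3, against 270.2, 324 and 344 CPM in WT replicates 1 to 3. The groups overlapped, with WT replicate 1 the lowest of the 6 libraries, and the log2 fold change was 0.12 (SE 0.08, edgeR adjusted p = 0.284). It was 0.03 without WT replicate 1 and 0.20 without WT replicate 3, and SLC7A5 was called in none of 14 alternatives (edgeR adjusted p between 0.0575 and 0.623). SLC7A8 (LAT2), a neutral amino acid exchanger of polarised epithelia, was the light chain that rose, with 14.7, 14.9 and 14.5 CPM in KO replicates 1 to 3, against 11.8, 11.7 and 11.4 CPM in WT replicates 1 to 3. The groups did not overlap, with an SD of 0.232 CPM in the KO and 0.169 CPM in the WT libraries, and the log2 fold change was 0.34 (SE 0.07, edgeR adjusted p = 0.00266).

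SLC7A11 (xCT), which imports cystine in exchange for glutamate, measured 65.1, 70.5 and 78.0 CPM in KO replicates 1 to 3, against 76.4, 66.7 and 66.4 CPM in WT replicates 1 to 3. The libraries of both groups were intermixed (log2 fold change 0.03, SE 0.07, edgeR adjusted p = 0.821). SLC7A6 (y+LAT2), which exchanges cationic for neutral amino acids, measured 51.0, 51.3 and 48.0 CPM in KO replicates 1 to 3, against 51.7, 54.3 and 53.4 CPM in WT replicates 1 to 3. The KO values were the lower ones by a narrow gap, which did not pass the test (log2 fold change -0.08, SE 0.05, edgeR adjusted p = 0.235), and exons of SLC7A6 overlap SLC7A6OS on the other strand by 3371 bases. SLC7A7 (y+LAT1), mutated in lysinuric protein intolerance, measured 1.98, 1.79 and 1.42 CPM in KO replicates 1 to 3, against 1.42, 1.46 and 1.08 CPM in WT replicates 1 to 3. The ranges overlapped, and the log2 fold change of 0.39 (SE 0.18) was not called (edgeR adjusted p = 0.125). SLC3A1 (rBAT), the heavy chain of the renal cystine transporter, had 4, 7 and 8 counts in KO replicates 1 to 3, against 10, 10 and 6 counts in WT replicates 1 to 3, which overlap. Its exons overlap those of PREPL, expressed at 91.8 CPM in the KO and 100.6 CPM in the WT libraries, by 1923 bases. SLC7A9, the light chain of SLC3A1, had 7 counts in each group, SLC7A10 had 4 in the KO and 5 in the WT libraries, and SLC7A13 had 0 in all 6.

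**Figure D3:**
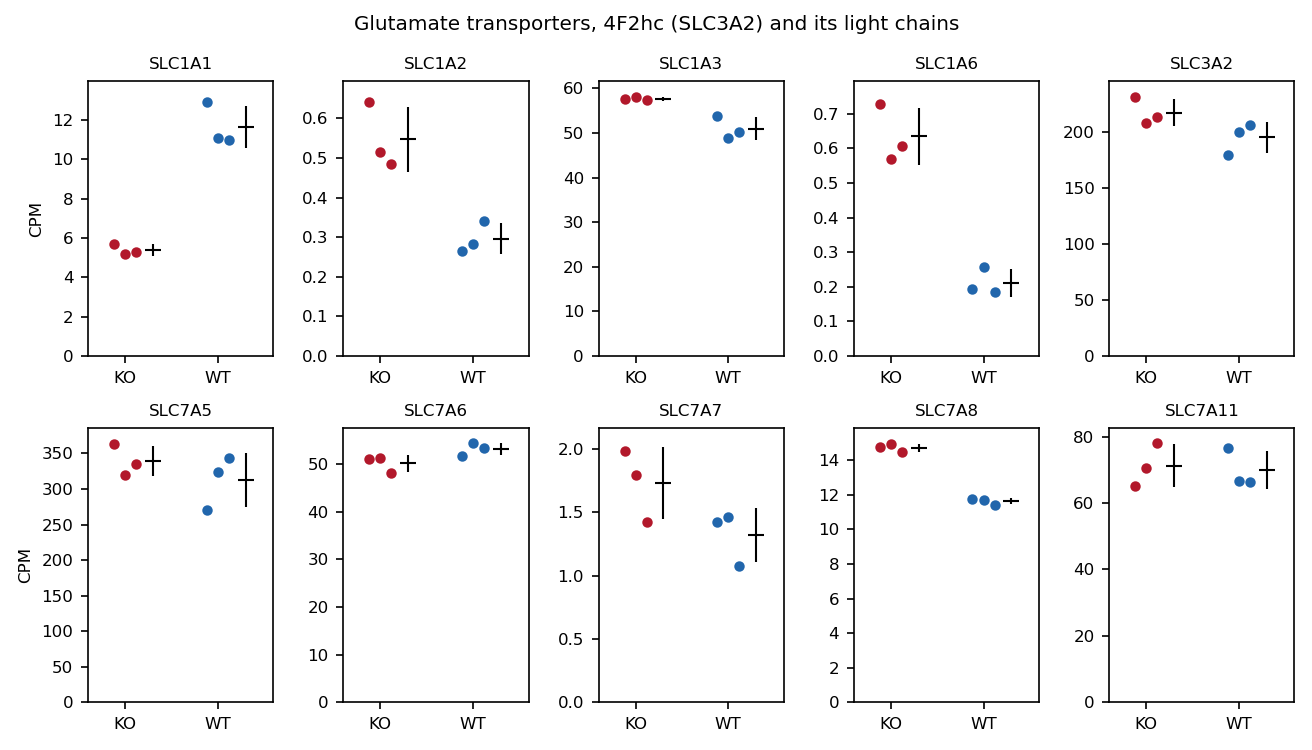
CPM in each library (coloured circles) with mean and SD of 3 libraries (black), KO left and WT right in each panel, for 4 glutamate transporters, the heavy chain SLC3A2 and its light chains. SLC1A1 is below 6 CPM in every KO library and above 10 CPM in every WT library, whereas the SLC7A5 and SLC7A11 libraries of both groups overlap.

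The cationic amino acid transporters of the SLC7 family split by level: the abundant members were not called and the scarce SLC7A3 fell. SLC7A3 (CAT3), an arginine and lysine transporter of brain and embryo, lies on chromosome X between 70925582 and 70931125. It had 11, 18 and 13 counts in KO replicates 1 to 3, or 0.320, 0.489 and 0.394 CPM, against 135, 112 and 125 counts in WT replicates 1 to 3, or 3.25, 2.87 and 3.28 CPM. No KO library came near the lowest WT library. The log2 fold change was -2.95 (SE 0.18, edgeR adjusted p = 8.13e-07), a 7.73-fold lower level where neighbours had a median of -0.04 on the log2 scale. SLC7A1 measured 287, 301 and 280.3 CPM in KO replicates 1 to 3, against 271, 289 and 295 CPM in WT replicates 1 to 3. The libraries overlapped, and the log2 fold change was 0.02 (SE 0.04, edgeR adjusted p = 0.735). SLC7A2 (CAT2), which supplies arginine in liver and immune cells, averaged 85.0 ± 2.86 CPM in the KO and 81.4 ± 6.497 CPM in the WT libraries (SD, n = 3 each) and was called only without WT replicate 1 among 14 alternatives (log2 fold change 0.14, edgeR adjusted p = 0.0258, in a range of 0.0258 to 0.747). SLC7A4 and SLC7A14 had 1 count each in the KO and 0 in the WT libraries.

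SLC6A4 (SERT), the serotonin transporter, showed the largest change of the 36 tested genes. The gene spans 30194319 to 30236002 of chromosome 17 (hg38, minus strand). It had 10, 13 and 16 counts in KO replicates 1 to 3, or 0.291, 0.353 and 0.485 CPM, against 241, 232 and 234 counts in WT replicates 1 to 3, or 5.81, 5.95 and 6.14 CPM. The WT libraries were within 0.4 CPM of each other, and the KO libraries stayed under 0.5 CPM. Its log2 fold change was -3.98 (SE 0.16, edgeR adjusted p = 3.38e-08), which is 15.8-fold lower, where neighbours had a median of -0.23 on the log2 scale. The other monoamine transporters were at the limit of detection, SLC6A3 (DAT, dopamine) with 1 count in each group and SLC6A2 (NET, noradrenaline) with 0 in all libraries.

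SLC6A8, the creatine transporter, fell and had the highest CPM of the 7 transporters that changed by at least 1.5-fold. It measured 82.4, 83.5 and 81.4 CPM in KO replicates 1 to 3, against 126, 147 and 146 CPM in WT replicates 1 to 3. WT replicate 1 was the lowest of its group and still far above the KO libraries. The log2 fold change was -0.76 (SE 0.06, edgeR adjusted p = 4.64e-06), where neighbours had a median of -0.20 on chromosome X, and -0.56 with that median removed. Near-identical copies of SLC6A8 exist in the genome, and the row of 1 of them, SLC6A10P, had 0 counts in all libraries. PNCK, whose exons overlap those of SLC6A8 by 22 bases on the other strand, also fell, to 0.374 ± 0.00919 CPM in the KO, against 1.02 ± 0.333 CPM in the WT libraries (SD, n = 3 each).

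Among the GABA and taurine transporters of the SLC6 family, SLC6A11 fell and SLC6A6 was not called. SLC6A11 (GAT3), an astrocyte GABA transporter, measured 5.85, 6.63 and 6.999 CPM in KO replicates 1 to 3, against 10.1, 9.19 and 9.10 CPM in WT replicates 1 to 3. The groups were separate, and the log2 fold change was -0.55 (SE 0.09, edgeR adjusted p = 0.00121). The gene lies on chromosome 3 from 10816200 to 10940733, and the median of its neighbours was 0.07 on the log2 scale. SLC6A6 (TauT), the taurine transporter, averaged 70.4 ± 2.82 CPM in the KO and 67.2 ± 2.08 CPM in the WT libraries (SD, n = 3 each) and was not called. SLC6A12 (BGT1, betaine) had 27 counts in each group and SLC6A13 (GAT2) 13 in the KO and 17 in the WT libraries.

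Glycine and neutral amino acid transporters of the SLC6 family held 2 rises and 0 falls among 4 tested genes. Over all tested genes 14.0% were called higher and 17.7% lower, and 4 genes are too few to set a share against these. SLC6A9 (GlyT1), a glycine transporter, measured 23.9, 23.3 and 25.1 CPM in KO replicates 1 to 3, against 12.1, 14.7 and 16.8 CPM in WT replicates 1 to 3. The WT libraries were spread more widely than the KO libraries and none reached them. Its log2 fold change was 0.73 (SE 0.10, edgeR adjusted p = 0.000329), where neighbours had a median of 0.03, and exons of SLC6A9 overlap CCDC24 on the other strand by 404 bases. CCDC24 averaged 2.10 ± 0.172 CPM in the KO and 2.13 ± 0.354 CPM in the WT libraries (SD, n = 3 each). SLC6A17 (NTT4), a vesicular transporter of neutral amino acids in neurons, averaged 6.46 ± 0.358 CPM in the KO and 4.46 ± 0.339 CPM in the WT libraries (SD, n = 3 each), a log2 fold change of 0.54 (edgeR adjusted p = 0.00194). SLC6A15 (B0AT2), a neuronal transporter of branched-chain amino acids and proline, was high at 169 ± 2.17 CPM in the KO and 178 ± 8.88 CPM in the WT libraries (SD, n = 3 each) and not called (log2 fold change -0.07, edgeR adjusted p = 0.233). SLC6A16 had a log2 fold change of 0.28 and was not called (edgeR adjusted p = 0.136).

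**Figure D4:**
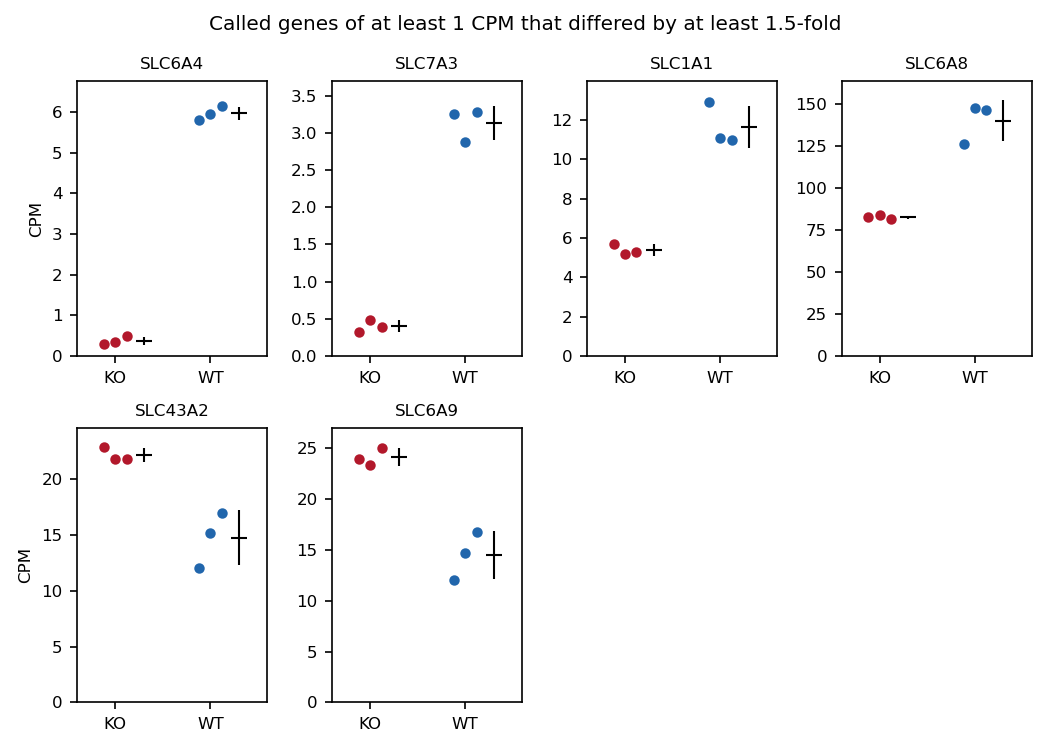
CPM in each library (coloured circles) with mean and SD of 3 libraries (black), KO left and WT right, for 6 called genes of at least 1 CPM that differed by at least 1.5-fold. In each panel the KO and WT libraries lie apart; SLC6A8 is at 81.4 to 83.5 CPM in the KO and 126 to 147 CPM in the WT libraries.

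Of 8 tested SLC38 genes, which encode sodium-coupled carriers and relatives found on lysosomes, 12.5% were called, beside 31.8% of all tested genes. The called gene was SLC38A2. It measured 394, 405 and 404 CPM in KO replicates 1 to 3, against 352, 300.2 and 311 CPM in WT replicates 1 to 3. WT replicate 1 was the highest of its group and below each KO library. The log2 fold change was 0.32 (SE 0.05, edgeR adjusted p = 0.00114), where neighbours had a median of -0.11. SLC38A1 (SNAT1), a glutamine importer that lies 88.17 kb from SLC38A2 on chromosome 12, measured 336, 349 and 349.5 CPM in KO replicates 1 to 3, against 382, 349.4 and 347 CPM in WT replicates 1 to 3. The groups overlapped, and the log2 fold change was -0.06 (SE 0.04, edgeR adjusted p = 0.348). SLC38A4 (SNAT4), an amino acid carrier of liver and placenta that lies 391.9 kb to the other side of SLC38A2, had too few counts for the filter, with 0, 1 and 1 in KO replicates 1 to 3, against 10, 8 and 4 in WT replicates 1 to 3. These counts give a ratio of KO over WT of 0.104 with an exact 95% interval of 0.0118 to 0.421 that covers counting error only. With no filter on low counts SLC38A4 was called lower (edgeR adjusted p = 0.00259).

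The other SLC38 genes were not called. SLC38A5 (SNAT5) had 8, 10 and 2 counts in KO replicates 1 to 3, against 9, 19 and 27 counts in WT replicates 1 to 3, which overlap. Its log2 fold change was -1.26 (SE 0.52, edgeR adjusted p = 0.0875), and it was called lower with no filter and without WT replicate 1 (adjusted p = 0.00603 and 0.00839, in a range of 0.00603 to 0.248 over 11 alternatives). SLC38A9, the arginine sensor of mTORC1 on the lysosome, averaged 35.7 ± 1.47 CPM in the KO and 34.9 ± 0.969 CPM in the WT libraries (SD, n = 3 each). SLC38A7 (SNAT7), which exports glutamine from the lysosome, averaged 43.6 ± 1.56 CPM in the KO and 39.8 ± 2.52 CPM in the WT libraries, a log2 fold change of 0.13 (edgeR adjusted p = 0.116). SLC38A3 (SNAT3), a glutamine transporter of liver, brain and kidney, had a log2 fold change of 0.24 (edgeR adjusted p = 0.0583) where neighbours had a median of 0.22, and 0.03 with that median removed. It was called with at least 1 CPM in 3 libraries (edgeR adjusted p = 0.0440, in a range of 0.0440 to 0.862 over 14 alternatives). SLC38A10 and SLC38A6 had log2 fold changes of 0.09 and -0.07.

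The carriers of the SLC36 family, which move amino acids out of lysosomes and across the plasma membrane, had the smallest log2 fold changes of the tested genes. SLC36A1 (PAT1) averaged 32.0 ± 2.13 CPM in the KO and 31.8 ± 2.58 CPM in the WT libraries, and SLC36A4 (PAT4) 65.8 ± 0.970 CPM in the KO and 66.4 ± 3.09 CPM in the WT libraries (SD, n = 3 each), with log2 fold changes of 0.01 and -0.01. In the SLC43 family, SLC43A2 (LAT4), a facilitated carrier of branched-chain amino acids, phenylalanine and methionine, rose. It measured 22.8, 21.8 and 21.7 CPM in KO replicates 1 to 3, against 12.1, 15.2 and 16.9 CPM in WT replicates 1 to 3. The KO libraries were close together and above all WT libraries, and the log2 fold change was 0.59 (SE 0.11, edgeR adjusted p = 0.00161) where neighbours had a median of -0.09. This is just above the 0.58 taken as 1.5-fold. It was 0.474 without WT replicate 1 and 0.578 without KO replicate 1, in a range of 0.474 to 0.708 over 14 alternatives that all kept the call. SLC43A1 (LAT3), the related carrier first described in prostate cancer, had 13.9 ± 0.923 CPM in the KO and 16.1 ± 1.16 CPM in the WT libraries (SD, n = 3 each), overlapping ranges and a log2 fold change of -0.21 (edgeR adjusted p = 0.0732).

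The remaining members were at or near the limit of detection. Of the 23 genes without enough counts, 6 had 0 counts in all 6 libraries: SLC6A2, SLC6A7 (proline), SLC6A18, SLC6A19 (the main neutral amino acid transporter of kidney and gut), SLC7A13 and SLC38A11. A count of 0 allows up to 0.0815 to 0.0909 CPM in a KO library and up to 0.0723 to 0.0787 CPM in a WT library, at 3 counts. A further 7 had 1 or 2 counts in all, among them SLC6A5 (GlyT2) and SLC6A14 (ATB0+), and the other 10 had 8 to 54 counts over the 6 libraries.

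Other genes of amino acid supply were read from the same fit in 3 lists. For each list, the called genes with the smallest p values in each direction are named first. Of 36 tested genes of mTORC1 amino acid sensing, 9 rose and 4 fell, 36.1% called beside 31.8% of all genes, with a median log2 fold change of 0.07 beside 0.00. DEPDC5, a subunit of the GATOR1 inhibitor of mTORC1, averaged 19.8 ± 0.697 CPM in the KO and 11.7 ± 0.472 CPM in the WT libraries (SD, n = 3 each), a log2 fold change of 0.76 where neighbouring genes had a median of 0.30, and TSC1, a brake on the pathway, rose by 0.28 on the log2 scale. RRAGA, a GTPase that recruits mTORC1 to the lysosome, and SEH1L of GATOR2 fell, with log2 fold changes of -0.28 and -0.22. MTOR itself, its partner RPTOR and the GATOR2 genes MIOS and WDR59 were called higher, with 0.17, 0.29, 0.27 and 0.13. The neighbours of RPTOR had a median of 0.27. Whether the activity of the pathway differed was not tested. Of 18 genes of the GCN2 and ATF4 axis, 6 rose and 6 fell, 66.7% called, with a median log2 fold change of 0.05. ATF3, a stress transcription factor, rose by 0.30 and NUPR1, a stress-induced chromatin protein, by 2.37, whereas the eIF2alpha kinase EIF2AK1 (-0.30) and the pseudokinase TRIB3 (-0.48) fell. EIF2AK4, which encodes GCN2, was called lower (-0.28) and ATF4 higher (0.23). Their neighbouring genes had medians of -0.04 and 0.31, so the rise of ATF4 was no larger than that of its neighbours. Of 18 tested amino acid carriers of other SLC families and sideroflexin, 3 rose and 4 fell, 38.9% called, with a median log2 fold change of 0.07. The mitochondrial carriers SLC25A29 (basic amino acids) and SLC25A38 (glycine) rose, with log2 fold changes of 0.62 and 0.23. Neighbouring genes had medians of -0.05 and 0.23, so the rise of SLC25A38 was no larger than that of its neighbours. SLC25A13 (aspartate and glutamate) and the lysosomal SLC17A5 fell, with -0.30 and -0.31, where neighbouring genes had medians of -0.01 and -0.13.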

How the data were processed

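Whole-number read counts per gene symbol were deposited by the authors in 1 table that keeps the libraries apart and is neither normalized nor pooled. Per the submitters' processing notes, the tools named are STAR 2.4, HTSeq 0.9.1, DESeq2, Picard and Trim Galore, with hg38. For their roles, the annotation release and the strand setting, nothing is given in the sources used here. Per the labels' protocols, a stranded poly(A) kit was used.

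In R 4.3.3, edgeR 4.0.16 was run on all 18061 genes that passed filterByExpr, with TMM scaling, a quasi-likelihood F test of KO against WT, Benjamini-Hochberg adjustment and a threshold of 0.05. The procedure was tested on simulated data. CPM use TMM-scaled totals of the tested genes. The SE is the size of the log2 fold change divided by the square root of F. Neighbour medians use 20 expressed genes (at least 2 CPM) on each side. Positions and exon lengths are from GENCODE 29 (hg38), matched for all 59 members. Members, lists and rules were chosen with earlier results of these data known. Values in every library are given for called genes of at least 1.5-fold and 1 CPM, for the SLC3 genes and their tested light chains and for the 5 highest levels; SLC1A2, SLC1A3, SLC1A6, SLC6A11, SLC38A1, SLC38A4 and SLC38A5 were added after their values were seen. Alternatives were RLE factors, no scaling factor, no filter, at least 1 CPM in 3 libraries, DESeq2 1.42.0, limma-voom (limma 3.58.1), the replicate block, each library left out, removal of the neighbour median and, for counts of calls, a threshold of 0.01. The labels name no molecular identifiers, so reads may repeat a molecule, and the intervals and floors speak of counting error alone. A single transporter and the blood marker totals are not reported here.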

Additional observations from a re-analysis of the deposited data

How the results depend on the processing

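Over the alternatives 7 to 11 transporters were called higher, beside 10, and 5 to 7 lower, beside 5. Of the 15 called transporters, 12 kept their direction and their call in every alternative that tested them, and SLC1A2, SLC1A3 and SLC1A5 lost the call in some but not the direction. With the replicate block 8 were called higher and 5 lower, and over all genes 4232 were called, beside 5737. Same-numbered KO and WT libraries did not deviate together (r = -0.373, -0.0436 and -0.0882 for replicates 1 to 3), so the numbers are not taken as pairs. No library correlated best with the library of its own number in the other group. Without WT replicate 1, 10 were called higher and 7 lower, with SLC38A5 and SLC43A1 added to the lower and SLC7A2 to the higher ones, and SLC1A2 lost.

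Among the 21 uncalled transporters, 11 changed sign in 21 fits, all with adjusted p of 0.283 or more. With the neighbour median removed the log2 fold change was 0.0505 for SLC1A4, 0.0498 for SLC38A1, 0.0473 for SLC6A15, -0.0196 for SLC36A1, -0.173 for SLC38A10 and -0.00165 for SLC6A6. With no filter SLC36A1 had -0.0002. Leaving out 1 library gave -0.0331 to 0.0847 for SLC36A1, -0.0329 to 0.0347 for SLC36A4, -0.0126 to 0.193 for SLC38A10, -0.157 to 0.0393 for SLC38A6, -0.00232 to 0.0619 for SLC38A9, -0.00453 to 0.0535 for SLC7A1 and -0.0425 to 0.107 for SLC7A11. The cause of these changes was not tested. Some genes rest on few counts: SLC1A2 on 57 in the KO and 35 in the WT libraries, SLC1A6 on 66 in the KO and 25 in the WT libraries, and SLC38A5 on 20 in the KO and 55 in the WT libraries.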
